A study of Homo sapiens with 9 samples.

Results

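The comparison described here sets 3 RNA-seq libraries labelled GSK343 against the 3 control libraries of the same cell lines, 6 of the 9 libraries of the series, chosen by their labels alone. MDA-MB-231, MDA-MB-436 and the remaining line, MDA-MB-453, are human lines that the study describes as triple-negative breast cancer, a tumour type without oestrogen receptor, progesterone receptor or amplified HER2. Each line contributed 1 control library, 1 library labelled GSK343 and 1 labelled shEZH2. The lines are therefore used as the replicates, and every difference is taken within a line. Total RNA was taken from cells grown in DMEM with 10% serum. No source used here gives the dose or duration of GSK343. The control libraries carry no treatment in the sample labels and the name shControl in the table, so whether a control hairpin was present in them is not settled. The GSK343 label names no hairpin. Nothing in the sources says that libraries came from separate cultures beyond the separate lines, so p-values measure the spread of the difference between these lines. Expression is given as RPKM, reads scaled to gene length and library size, and 12260 of the 58037 genes in the table, those that reach 1 RPKM in 3 or more of the 6 libraries, were tested. Sets of 3 RPKM values follow the order MDA-MB-231, MDA-MB-436, MDA-MB-453.

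EZH2 is the enzyme of Polycomb repressive complex 2 (PRC2) that places methyl groups on lysine 27 of histone H3, a mark of silenced developmental genes. GSK343 is a small molecule that competes with the methyl donor S-adenosylmethionine in the active site of EZH2. It blocks the enzyme's activity rather than its transcript, and loss of the methyl mark usually relieves silencing of PRC2 targets. EZH2 is abundant in proliferating cells, where the E2F factors drive it together with genes of replication and mitosis.

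EZH2 itself was read first as a check of the labels. Its transcript stood at 27.4, 38.9 and 42.3 RPKM in the controls and 5.77, 7.53 and 7.99 RPKM under the GSK343 label (chr7:148807383-148884321, minus strand, GRCh38). The 3 GSK343-labelled values lay below every control (log2 fold change -2.19 ± 0.46, adjusted p = 0.000192 with limma) and below the 16.4, 37.4 and 16.2 RPKM of the libraries labelled shEZH2. The hairpin is the agent directed at this transcript, and why the GSK343-labelled values were the lower ones was not tested. Whether each label names the agent used is not settled here, and "GSK343-labelled" below means only the label. The libraries implied 14757000 to 16785000 reads. The GSK343-labelled libraries held 24430, 26798 and 26612 genes above 0 and the controls 22975, 23604 and 23900. Mitochondrially encoded genes took 21.6%, 13.7% and 22.5% of the RPKM sum in the GSK343-labelled libraries and 14.0%, 17.6% and 17.4% in the controls. The libraries labelled MDA-MB-453 stood apart in another way. In the GSK343-labelled library of that line only 2.02% of 8469 genes lay more than 1.25-fold outside the range spanned by the other 2 lines, and in its control 25.2% of 8242 did. These counts cover genes that reach 5 RPKM in at least 1 line. Neither of the 2 libraries had a gene at 5 RPKM or more that was under 0.5 RPKM in both other lines, while MDA-MB-231 and MDA-MB-436 set against each other had between 139 and 191 such genes. As a weighted sum of the MDA-MB-231 and MDA-MB-436 libraries, the GSK343-labelled MDA-MB-453 library had weights of 0.491 and 0.458. Its control had weights of 0.506 and 0.4425. Rank correlations with the mean of the other 2 lines were 0.981 and 0.917. The full fit counts MDA-MB-453 as an independent replicate, and its p-values hold only if that is so, which was not tested. These libraries are therefore cited by label, and results are given with and without them. ESR1 and PGR, the 2 hormone receptor genes, stayed at or below 0.0273 RPKM in all 6 libraries, and ERBB2, which encodes HER2, at 6.25 to 11.1. Summed markers of leukocytes were at 4.68 to 6.57 RPKM in the controls and 6.84 to 8.43 in the GSK343-labelled libraries, with 1 of 7 markers reaching the test. Markers of endothelial cells, fibroblasts and red cells summed to at most 4.61 RPKM in any library, and the part of other cells in the results was not tested. Fewer cells of a kind and less RNA per cell cannot be told apart in such bulk samples.

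More genes were higher than lower. Of 12260 genes tested with limma, 807 were higher in the GSK343-labelled libraries (6.58%) and 223 were lower (1.82%), 8.4% in all, at an adjusted p of 0.05. The median fold change was 1.69 among the higher genes and 1.61 among the lower ones, 187 and 14 of them moved at least 2-fold, and 18 and 1 at least 4-fold. The single gene that fell at least 4-fold was EZH2. The sign was the same in all 3 lines for 796 of the higher and 221 of the lower genes. The genes were picked from these same differences, so the shared signs are not separate support. In 376 of the higher and 113 of the lower genes all GSK343-labelled values lay outside the control values. Over all tested genes, 782 (6.38%) had all 3 GSK343-labelled values above all 3 controls and 386 (3.15%) had them below. Rescaling the libraries by median ratios gave 597 higher and 271 lower genes, and rescaling to a common sum gave 578 and 274, so the excess of higher genes was smaller there.

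The count depended on the pairing by line and on the libraries labelled MDA-MB-453. Without those libraries 44 genes were called, 38 higher and 6 lower (0.359% of the 12260). Of these, 42 were also called with them. All 807 higher and all 223 lower genes kept their sign without that line. The fit that picked them includes the other lines, so the kept signs are largely set by the selection. The count was 322 without the MDA-MB-453 control alone, 366 without the GSK343-labelled MDA-MB-453 library and 506 without the GSK343-labelled MDA-MB-231 library. It was 390 without all of MDA-MB-231. Without the replicate block, which compares the groups without pairing libraries of a line, LCN2 and GDF15 were the 2 genes called. Of the 12260 genes, 60 reach 1 RPKM only in GSK343-labelled libraries and 9 only in controls, and 39 and 5 of these were among the called genes. For such genes the filter itself keeps the groups from overlapping.

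Polycomb subunits were read next. Of 12 tested PRC2 subunits 2 were lower, EZH2 among them, and 1 was higher (median log2 fold change -0.18, against 0.05 over all genes). That is 25% called, against 8.4% over all genes tested. PHF19, a Polycomb-like subunit that guides PRC2 to CpG islands, fell from 41.7, 47.6 and 36.1 to 22.3, 23.9 and 21.1 RPKM (log2 fold change -0.86 ± 0.29, adjusted p = 0.00281), with no overlap between groups. Its relative PHF1 rose from 6.89, 3.3 and 4.26 to 8.93, 5.15 and 6.98 RPKM (log2 fold change 0.48 ± 0.30, adjusted p = 0.0493), and those groups overlap. PHF1, called in the fit of all 9 libraries, lost its call when any 1 of them or any whole line was left out, and after either rescaling. The number of subunits called lower was 1 without all of MDA-MB-453. The paralogous methyltransferase EZH1 was at 5.09, 2.49 and 4.52 RPKM in the controls and 5.79, 5.2 and 5.52 RPKM under the GSK343 label (log2 fold change 0.41 ± 0.36, adjusted p = 0.142), and did not pass although all GSK343-labelled values were the higher ones. The core partners SUZ12 (-0.17 ± 0.37) and EED (-0.08 ± 0.34) did not pass either, and without the MDA-MB-453 libraries their values were 0.046 and 0.12. Among 19 subunits of PRC1, the complex that reads the mark, 0 were called in either direction, where 8.4% of all tested genes were called.

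Genes commonly described as PRC2 targets were mostly not called, like most genes, since 8.4% of all tested genes were called. The share was 6.25% for HOX cluster genes, 3.70% for developmental factors and 17.65% for tumour suppressors. Their median log2 fold changes were 0.16, 0.25 and 0.05, against 0.05 over all genes. Of the 39, 49 and 24 listed genes 16, 27 and 17 were tested, and members under the RPKM filter were not. Of 16 tested HOX cluster genes, which encode axial patterning factors, 1 was higher. HOXB9 rose from 15.2, 0.923 and 7.96 to 29, 3.42 and 15.2 RPKM (log2 fold change 0.98 ± 0.31), most steeply in MDA-MB-436, where it began lowest. Of 27 developmental transcription factors 0 were higher and 1 was lower, SOX9, which fell from 57, 26.8 and 38.5 to 37, 13 and 26.3 RPKM (log2 fold change -0.71 ± 0.31). Of 17 tumour suppressors described as silenced by EZH2, 1 was higher and 2 were lower. SLIT2, a secreted guidance protein on that list, fell from 7.39, 7.58 and 10.8 to 4.02, 3.65 and 4.27 RPKM (log2 fold change -0.93 ± 0.33), all GSK343-labelled values being below all controls. The number of HOX genes called higher was 2 without the MDA-MB-231 control, and 0 without all of MDA-MB-453. Of the developmental factors 3 were called higher without the MDA-MB-231 control and 1 without the MDA-MB-436 control, and the number called lower was 2 without the MDA-MB-436 control, and 0 without the MDA-MB-436 GSK343 library, or any 1 whole line. Of the tumour suppressors the number called higher was 3 without the MDA-MB-231 control, 2 without the MDA-MB-453 shEZH2 library, or all of MDA-MB-231, and 0 without the MDA-MB-436 or MDA-MB-453 control, the MDA-MB-436 or MDA-MB-453 GSK343 library, or all of MDA-MB-436 or MDA-MB-453, and the number called lower was 1 without the MDA-MB-453 control, the MDA-MB-231 or MDA-MB-453 GSK343 library, or all of MDA-MB-231, and 0 without all of MDA-MB-453. KDM6B, a demethylase that removes the mark, rose from 4.32, 12.7 and 6.45 to 5.9, 29.3 and 15.6 RPKM (log2 fold change 0.89 ± 0.38), with overlapping groups.

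Secreted inflammatory proteins were among the largest rises. Among interleukins, blood cell growth factors and TNF family ligands, 12 of 23 tested members were higher and 0 lower (median 0.60). That is 52.17% called, against 8.4% over all genes tested. IL6, which signals through gp130 and STAT3, was at 13.3, 44.1 and 28.6 RPKM in the controls and 59.3, 149.6 and 120.2 RPKM under the GSK343 label (chr7:22725884-22732002, plus strand; log2 fold change 1.95 ± 0.31, adjusted p = 2.61e-05). Every GSK343-labelled value exceeded every control, and the rise was similar in each line, with log2 differences of 2.07, 1.74 and 2.03. IL24, a member of the IL10 family, was at 5.31, 1.84 and 3.32 RPKM in the controls and 48.8, 6.04 and 19.5 RPKM under the GSK343 label (log2 fold change 2.18 ± 0.63). The groups did not overlap, though the lowest GSK343-labelled value, in MDA-MB-436, was close to the highest control. CSF3, the neutrophil growth factor G-CSF, was at 9.19, 54 and 18.6 RPKM in the controls and 72.3, 187 and 123 RPKM under the GSK343 label (log2 fold change 2.43 ± 0.44), again without overlap. IL11, an IL6 relative, rose from 48.3, 4.64 and 13.8 to 94.1, 10.1 and 59.2 RPKM (log2 fold change 1.31 ± 0.43), within lines that started far apart, so its groups overlap.

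CSF2 (GM-CSF) was at 17.6, 3.48 and 7.65 RPKM in the controls and 254, 16.8 and 104 RPKM under the GSK343 label (log2 fold change 3.12 ± 0.62), with most of the absolute rise in MDA-MB-231 and MDA-MB-453 and with overlapping groups. IL1B, the secreted interleukin 1, rose from 5.15, 131 and 63.9 to 75.1, 250.5 and 130.2 RPKM (log2 fold change 1.86 ± 0.88), most in MDA-MB-231, where it began lowest. EBI3, a subunit of IL27 and IL35, rose from 3.72, 11.2 and 3.92 to 12.3, 21.4 and 17.4 RPKM (log2 fold change 1.43 ± 0.42) and kept the groups apart. The number of members called higher in this group was 7 without the MDA-MB-231 or MDA-MB-453 GSK343 library, 6 without the MDA-MB-453 control, and 4 without all of MDA-MB-453.

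**Figure D1:**
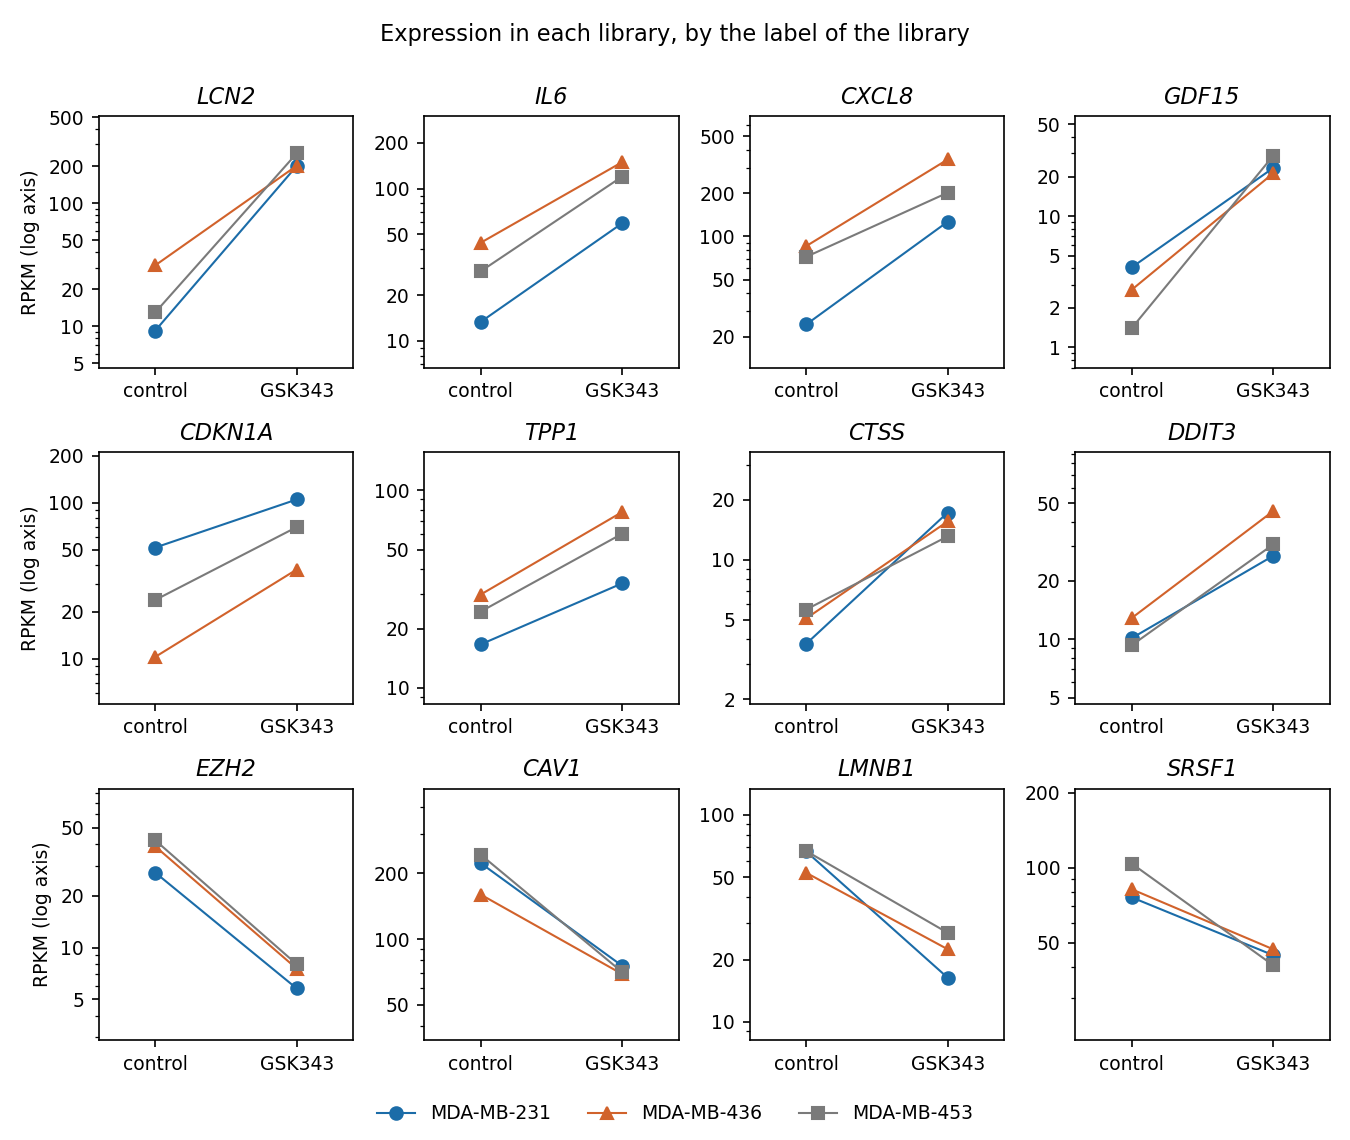
RPKM (log axis) of 12 genes in the control and the GSK343-labelled library of each line, with 1 point per library and a line joining the pair of a cell line. LCN2, IL6, CXCL8, GDF15, CDKN1A, TPP1, CTSS and DDIT3 climb in every line, and EZH2, CAV1, LMNB1 and SRSF1 descend in every line.

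Chemokines, the secreted attractants of leukocytes, followed: 6 of 13 tested ligands were higher and 0 lower (median 0.91). The share called was 46.15%, against 8.4% over all genes tested. CXCL8, the neutrophil attractant also known as interleukin 8, was at 24.3, 85.6 and 72.1 RPKM in the controls and 127, 344 and 202 RPKM under the GSK343 label (chr4:73740506-73743716, plus strand; log2 fold change 1.93 ± 0.40, adjusted p = 0.000192), with all GSK343-labelled values above the controls. The neighbouring paralog CXCL1, which acts on the same receptor, was at 33.5, 108 and 63.6 RPKM in the controls and 434, 204 and 328 RPKM under the GSK343 label (log2 fold change 2.31 ± 0.79, adjusted p = 0.00292). The lines differed, since MDA-MB-231 rose from the lowest control to the highest value and MDA-MB-436 rose least. CXCL2 rose from 5.93, 62.7 and 27 to 36.2, 181 and 93.2 RPKM (log2 fold change 1.90 ± 0.40). CXCL3 rose from 1.59, 11.4 and 5.2 to 12.2, 29.3 and 13 RPKM (log2 fold change 1.60 ± 0.49). CXCL1, CXCL2 and CXCL3 share much of their sequence, so reads may be divided between them uncertainly. CCL26, an eosinophil attractant, rose from 0.845, 0 and 0.264 to 5.28, 1.03 and 2.12 RPKM (log2 fold change 1.36 ± 0.39), from controls all under 1 RPKM. CCL26 therefore passed the filter only through the GSK343-labelled libraries, which fixed the lack of overlap. CCL20, the ligand of CCR6, rose from 0.0444, 8.43 and 5.04 to 0.353, 48.8 and 19.6 RPKM (log2 fold change 1.51 ± 0.65), and stayed under 1 RPKM in MDA-MB-231. The number of ligands called higher was 3 without all of MDA-MB-453.

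Promoters of some called genes of the inflammatory lists are shown, picked because they hold a match to a short element. CXCL8, CSF2, CSF3 and IL1B, also called higher, had no match or no promoter entry, and not every gene with a match is shown. NF-kB, the dimeric factor that drives many inflammatory genes, binds a 10-base kB element, and the kB consensus was searched on both strands of the 250 bases before the start of each gene in RefSeq (GRCh38.p14). Of the 13 tested chemokine ligands 10 had an entry, and 6 of those held a match. The windows below read 5′ to 3′ in the direction of the gene, and capitals mark the match.
LCN2, chr9:128149268-128149297, plus strand: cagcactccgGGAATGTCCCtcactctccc
IL6, chr7:22727117-22727146, plus strand: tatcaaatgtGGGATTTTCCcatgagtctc
CXCL1, chr4:73869305-73869334, plus strand: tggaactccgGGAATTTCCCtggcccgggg
CXCL2, chr4:74099253-74099282, minus strand: tggagctccgGGAATTTCCCtggcccggga
TNFAIP3, chr6:137867194-137867223, plus strand: aaagtcccgtGGAAATCCCCgggcctacaa
The CXCL1 and CXCL2 elements carry the same capitals. CXCL1, CXCL2 and TNFAIP3 held 2 matches each, of which 1 is shown. Across 8827 tested genes with a promoter entry 1058 held the consensus, which is 12%. The share was 12.9% of the 505 called higher, 17.1% of the 111 that rose at least 2-fold and 11.4% of the 167 called lower. A match is a description of the sequence and not a bound site or a cause. TGANTCA, the letters that AP-1 dimers of FOS and JUN bind, was in 3.77% of all promoters, 8.12% of the called-higher ones, 16.2% of those at least 2-fold higher and 2.99% of the called-lower ones. The gene classes were defined by the expression values, and no test was made of these shares.

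Feedback regulators of NF-kB were partly higher, 5 of 25 tested genes with 0 lower (20% called against 8.4% over all genes tested, median 0.35). TNFAIP3, the ubiquitin-editing enzyme A20 that limits NF-kB signalling, rose from 5.46, 30.8 and 22.3 to 20.7, 106 and 52.6 RPKM (log2 fold change 1.57 ± 0.48). NFKBIZ, a nuclear co-factor needed for LCN2 and IL6 induction, rose from 3.76, 8.16 and 7.54 to 9.55, 17.9 and 12.5 RPKM (log2 fold change 0.95 ± 0.31), and it was the only member of the group still called without the MDA-MB-453 libraries. TRAF1, an adaptor of TNF receptors, rose from 5.5, 6.09 and 5.5 to 13.2, 15.5 and 10.9 RPKM (log2 fold change 1.07 ± 0.35). The values of NFKBIZ and of TRAF1 did not overlap between the groups, and those of TNFAIP3 did. The adhesion molecule ICAM1 rose from 33, 52.1 and 30.1 to 80.4, 78.3 and 86.1 RPKM (log2 fold change 1.11 ± 0.44). TNFRSF1B, a TNF receptor, rose from 5.07, 0.452 and 1.82 to 10.4, 3 and 7.8 RPKM (log2 fold change 1.34 ± 0.35). The number of regulators called higher was 3 without the MDA-MB-453 control, the MDA-MB-231 or MDA-MB-453 GSK343 library, or all of MDA-MB-231, and 1 without all of MDA-MB-453.

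Among innate defence proteins, 5 of 11 acute-phase and secreted proteins and 5 of 10 complement genes were higher, with 0 lower in both. The shares called were 45.45% and 50%, against 8.4% over all genes tested. LCN2, the iron-binding lipocalin of neutrophils and epithelia, was at 9.22, 31.3 and 13 RPKM in the controls and 201, 202 and 254 RPKM under the GSK343 label (log2 fold change 3.71 ± 0.59, adjusted p = 2.61e-05). It had the largest fitted rise of all genes tested, with every GSK343-labelled value above every control. C3, the central complement component, was at 7.95, 37.6 and 22.2 RPKM in the controls and 72.5, 62.1 and 107 RPKM under the GSK343 label (log2 fold change 1.99 ± 0.85). Both proteases of complement C1 rose. C1R rose from 1.78, 58.5 and 23.6 to 3.55, 95.1 and 46.1 RPKM (log2 fold change 0.78 ± 0.40). C1S rose from 0.545, 25.2 and 14.6 to 1.57, 43.1 and 19.9 RPKM (log2 fold change 0.64 ± 0.34), with MDA-MB-231 low in both groups. CD55, which protects cells from complement, rose from 40.8, 11.7 and 34.1 to 55.8, 26.1 and 44.8 RPKM (log2 fold change 0.64 ± 0.36). The number of acute-phase genes called was 3 without all of MDA-MB-231, and 2 without all of MDA-MB-453. The number of complement genes called was 2 without the MDA-MB-231 or MDA-MB-453 control, the MDA-MB-231 GSK343 library, or all of MDA-MB-231 or MDA-MB-436, 1 without the MDA-MB-436 or MDA-MB-453 GSK343 library, and 0 without all of MDA-MB-453. Of 39 tested interferon-stimulated genes 3 were higher and 0 lower, 7.69% against the 8.4% called over all genes, and the median in MDA-MB-231 was -0.09. IFI6, a mitochondrial protein, rose from 12.5, 32 and 13.1 to 48.4, 116 and 74.1 RPKM (log2 fold change 2.04 ± 0.35), the largest rise on that list. The number of interferon-stimulated genes called higher was 7 without all of MDA-MB-436, 6 without the MDA-MB-231 or MDA-MB-436 control, 5 without the MDA-MB-453 shEZH2 library, and 1 without all of MDA-MB-453. ISG20, an exonuclease, rose from 1.07, 1.1 and 0.809 to 2.33, 3.92 and 3.53 RPKM (log2 fold change 1.08 ± 0.36). PTGS2, the inducible cyclooxygenase, rose from 1.47, 1.93 and 2.78 to 8.95, 20.6 and 18.7 RPKM (log2 fold change 2.42 ± 0.60). The groups did not overlap for any of these 3.

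Lysosomal hydrolases and membrane proteins had more members called than any other list, 40.7% of those tested against 8.4% over all genes. Several shorter lists had a larger share called, among them canonical histones (62.5%), interleukins and related ligands (52.2%) and complement genes (50%). Lysosomes break down proteins, lipids and glycans with acid hydrolases, a proton pump keeps them acidic, and the MiT/TFE factors drive their genes through the CLEAR element. Of 54 tested hydrolases and membrane proteins 22 were higher and 0 lower (median 0.45, against 0.05 over all genes). TPP1, a peptidase, was at 16.6, 29.7 and 24.4 RPKM in the controls and 33.9, 77.8 and 60.4 RPKM under the GSK343 label (chr11:6612763-6619485, minus strand; log2 fold change 1.21 ± 0.31, adjusted p = 0.000634). CTSS, cathepsin S, was at 3.78, 5.07 and 5.62 RPKM in the controls and 17.2, 15.6 and 13.1 RPKM under the GSK343 label (log2 fold change 1.49 ± 0.37, adjusted p = 0.000596). In both the lowest GSK343-labelled value exceeded the highest control. ASAH1, acid ceramidase, rose from 2.52, 5.71 and 4.41 to 6.86, 14.4 and 11.8 RPKM (log2 fold change 1.20 ± 0.30). GRN, progranulin, rose from 126, 70.5 and 56.2 to 212, 154 and 192 RPKM (log2 fold change 1.20 ± 0.40). PSAP, the precursor of the saposins that assist lipid hydrolases, rose from 218, 481 and 302 to 461, 1046 and 667 RPKM (log2 fold change 1.11 ± 0.34), roughly doubling in each line. The groups were separate for ASAH1 and GRN and overlapped for PSAP. GAA, the acid glucosidase of glycogen, rose from 7.31, 13.4 and 6.67 to 15.6, 18.1 and 19.4 RPKM (log2 fold change 0.94 ± 0.42). MCOLN1, the lysosomal calcium channel, rose from 14.6, 11.1 and 7.89 to 18.2, 16.6 and 18 RPKM (log2 fold change 0.64 ± 0.39). The other called members rose by between 0.51 and 1.04 on the log2 scale. The number of members called higher was 14 without the MDA-MB-231 GSK343 library, 12 without the MDA-MB-453 GSK343 library, 10 without the MDA-MB-453 control, or all of MDA-MB-231, and 3 without all of MDA-MB-453.

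Of 18 tested subunits of the proton pump 5 were higher and 0 lower (27.78% called against 8.4% over all genes tested, median 0.40). ATP6V1F rose from 76.1, 182 and 76.8 to 172, 288 and 220.2 RPKM (log2 fold change 1.11 ± 0.42). ATP6V0A1 rose from 6.15, 4.05 and 4.4 to 13.5, 6.98 and 9.89 RPKM (log2 fold change 0.90 ± 0.32). ATP6V1B2 (0.56) and ATP6V0D1 (0.53) rose less and were not called after rescaling to a common sum. Of 44 tested genes of autophagosome formation and cargo capture 9 were higher and 0 lower (20.45% called, median 0.21). WIPI1, which binds the forming membrane, rose from 7.96, 2.87 and 6.28 to 22.2, 7.12 and 14.2 RPKM (log2 fold change 1.17 ± 0.30). GABARAPL1, a membrane-bound tag of autophagosomes, rose from 4.09, 15.8 and 10.7 to 9.2, 34.2 and 18.6 RPKM (log2 fold change 0.94 ± 0.30). These 2 were the members still called without all of MDA-MB-453. MAP1LC3B, the LC3 protein commonly used to follow autophagy, rose from 16.1, 20.5 and 19.6 to 29.9, 38.9 and 32.1 RPKM (log2 fold change 0.81 ± 0.29) without overlap. The cargo receptor SQSTM1 rose from 36.9, 266 and 112 to 76.1, 454 and 228 RPKM (log2 fold change 0.94 ± 0.36), with overlap, from a control range that spanned the lines widely.

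Of 23 tested MiT/TFE factors and nutrient sensors 5 were higher and 0 lower (21.74% called against 8.4% over all genes tested, median 0.27). RRAGD, a GTPase that reports amino acids to mTORC1, rose from 3.53, 9.89 and 9.4 to 8.2, 27 and 16.1 RPKM (log2 fold change 1.03 ± 0.35). FLCN, which acts on it, rose from 3.85, 2.29 and 2.37 to 5.48, 4.08 and 4.42 RPKM (log2 fold change 0.58 ± 0.31). GPNMB, a membrane glycoprotein, rose from 0.0902, 4.44 and 2.65 to 0.944, 48.3 and 31.3 RPKM (log2 fold change 2.39 ± 0.86), by far the most in MDA-MB-436 and MDA-MB-453. Among 10 tested genes of cholesterol export 4 were higher and 0 lower (40% called), PLTP (0.94) and APOC1 (0.83) among them. The number of proton pump genes called was 3 without the MDA-MB-231 or MDA-MB-453 shEZH2 library, 2 without the MDA-MB-231 or MDA-MB-436 control, any 1 GSK343-labelled library, the MDA-MB-436 shEZH2 library, or all of MDA-MB-436, and 0 without all of MDA-MB-231 or MDA-MB-453. That of MiT/TFE genes was 3 without any 1 GSK343-labelled library, or all of MDA-MB-231 or MDA-MB-436, 1 without the MDA-MB-453 control, and 0 without all of MDA-MB-453. That of cholesterol export genes was 1 without the MDA-MB-453 control, the MDA-MB-453 GSK343 library, or all of MDA-MB-231, and 0 without all of MDA-MB-453.

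Promoters of 3 called lysosomal genes are shown, picked because they hold the palindrome TCACGTGA. This core of the CLEAR element reads the same on both strands and contains the E-box CACGTG. Capitals mark it, and the build, source and reading direction are those of the windows above.
GAA, chr17:80101538-80101567, plus strand: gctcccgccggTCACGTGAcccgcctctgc
MCOLN1, chr19:7522598-7522623, plus strand: gggctaccgggTCACGTGAccgaggc
ATP6V0D1, chr16:67481199-67481228, minus strand: cccccttatggTCACGTGAggcgcttgcgc
Of the 38 hydrolase and membrane protein genes with a promoter entry 15.8% held TCACGTGA within 250 bases, against 1.85% of all 8827 promoters and 3.17% of the called-higher ones. The shorter CACGTG was in 26.3% of them and 9.09% of all. This compares the list as a whole, called or not, and it describes letters only.

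The counts on the stress lists differed in direction. Among targets of ATF4 and CHOP, the transcription factors of the integrated stress response, 9 of 36 tested genes were higher and 0 lower (median 0.14). The share called was 25%, against 8.4% over all genes tested. DDIT3, which encodes CHOP, was at 10.1, 12.8 and 9.31 RPKM in the controls and 26.8, 45.5 and 30.7 RPKM under the GSK343 label (log2 fold change 1.56 ± 0.44, adjusted p = 0.00116), with every GSK343-labelled value above every control. PPP1R15A, the phosphatase subunit that ends the response, rose from 79.4, 59 and 46.2 to 197, 147 and 139 RPKM (log2 fold change 1.39 ± 0.50). GDF15, a secreted stress hormone, rose from 4.06, 2.74 and 1.4 to 23.2, 21.1 and 28.8 RPKM (log2 fold change 2.82 ± 0.50), reaching a similar level in all lines. SESN2, a leucine sensor, rose from 8.57, 17 and 9.62 to 15.9, 42.2 and 22.1 RPKM (log2 fold change 1.07 ± 0.39). Cytoplasmic tRNA synthetases, also known as ATF4 targets, had 0 of 20 genes called in either direction, against 8.4% called over all genes. Of 32 tested chaperones and folding enzymes of the endoplasmic reticulum 1 was higher and 0 lower (3.125% called, median 0.00425). Of 34 NRF2 targets and partners 6 were higher and 1 lower (20.59% called), with a median of -0.07. On that list the number called higher was 3 without the MDA-MB-436 or MDA-MB-453 GSK343 library, or all of MDA-MB-436, 2 without the MDA-MB-453 control, and 0 without all of MDA-MB-453. The heat shock proteins described further on had 4 lower and 1 higher. The number of genes called on the ATF4 and CHOP list was 5 without the MDA-MB-231 or MDA-MB-453 GSK343 library, 2 without the MDA-MB-453 control, and 1 without all of MDA-MB-453.

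Immediate-early transcription factors, which answer growth factors and stress within a short time, had 13 of 29 tested genes higher and 0 lower (median 0.50). The share called was 44.83%, against 8.4% over all genes tested. EGR1, a zinc finger factor, was at 11.6, 4.42 and 6.53 RPKM in the controls and 22.2, 54.5 and 28.2 RPKM under the GSK343 label (log2 fold change 2.06 ± 0.94, adjusted p = 0.0137). Its controls stayed below all 3 GSK343-labelled values, and the rise was widest in MDA-MB-436. ATF3 rose from 2.45, 6.28 and 3.86 to 4.61, 21.8 and 11 RPKM (log2 fold change 1.22 ± 0.53). FOSB rose from 0.591, 0.633 and 0.414 to 1.54, 2.17 and 1.96 RPKM (log2 fold change 0.90 ± 0.30). FOSB stayed low throughout. MAFF, a small MAF protein, rose from 13, 10.8 and 7.48 to 18.4, 24.3 and 17.6 RPKM (log2 fold change 0.90 ± 0.39). KLF10 rose from 15.7, 18 and 20.3 to 26.2, 38.3 and 30.2 RPKM (log2 fold change 0.77 ± 0.33). Of these 4 only ATF3 had overlapping groups. For FOSB the filter itself fixed the lack of overlap, since all its controls were under 1 RPKM. The number called was 8 without all of MDA-MB-231, 7 without the MDA-MB-231 GSK343 library, 5 without the MDA-MB-453 GSK343 library, 3 without the MDA-MB-453 control, and 0 without all of MDA-MB-453. DUSP1, a phosphatase that switches off MAP kinases, rose from 34.1, 71.4 and 40.1 to 74, 126 and 96.4 RPKM (log2 fold change 1.05 ± 0.33). BHLHE40, a circadian repressor, rose from 19.6, 58.7 and 38 to 31.6, 120.00 and 87.5 RPKM (log2 fold change 0.95 ± 0.32).

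CDKN1A, the cyclin-dependent kinase inhibitor p21, was at 51.5, 10.3 and 23.8 RPKM in the controls and 105, 37.3 and 69.7 RPKM under the GSK343 label (log2 fold change 1.43 ± 0.35, adjusted p = 0.000539), and it more than doubled within every line although the groups overlap. TXNIP, an arrestin that restrains glucose uptake, rose from 63.1, 124 and 104 to 117, 323 and 169.9 RPKM (log2 fold change 0.99 ± 0.36). Its relative ARRDC4 rose from 1.77, 6.03 and 5.93 to 4.86, 19.3 and 9.44 RPKM (log2 fold change 1.07 ± 0.38). Both rose most in MDA-MB-436. SAT1, which catabolises polyamines, rose from 16.8, 36.3 and 24.6 to 52.6, 96.6 and 62.4 RPKM (log2 fold change 1.43 ± 0.35). FTH1, the ferritin heavy chain that stores iron, rose from 199.9, 1258 and 362 to 337, 2631 and 1547 RPKM (log2 fold change 1.30 ± 0.51). NQO1, a quinone reductase and like FTH1 a target of NRF2, went the other way and fell from 51.9, 104 and 73.4 to 11.9, 69.6 and 34.7 RPKM (log2 fold change -1.22 ± 0.54). HSPB8, a small heat shock protein that works with autophagy, rose from 0.897, 4.54 and 1.93 to 2.75, 19.2 and 11.1 RPKM (log2 fold change 1.63 ± 0.65).

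Further genes were called both with and without the MDA-MB-453 libraries. MDK, the growth factor midkine, rose from 15.9, 52.5 and 18.6 to 43.9, 108 and 73 RPKM (log2 fold change 1.45 ± 0.38). ECM1, an extracellular matrix protein, rose from 28.3, 22.4 and 19.1 to 75.2, 59.97 and 75.4 RPKM (log2 fold change 1.56 ± 0.32). GALNT12, a Golgi enzyme that starts O-glycans, rose from 0.552, 0.76 and 0.693 to 2.9, 4.87 and 3.49 RPKM (log2 fold change 1.49 ± 0.32). The last 2 had no overlap, and both reached like levels in all 3 lines. For GALNT12 the filter itself fixed the lack of overlap, since all its controls were under 1 RPKM. PTPRR, a tyrosine phosphatase of MAP kinases, rose from 0.348, 1.19 and 0.76 to 3, 4.16 and 2.89 RPKM (log2 fold change 1.32 ± 0.34). SUN3, a nuclear envelope protein best known from testis, rose from 1.21, 0.482 and 0.609 to 12.5, 3.45 and 6.06 RPKM (log2 fold change 2.11 ± 0.54). SPINK1, a secreted trypsin inhibitor, rose from 0.121, 0.765 and 0.545 to 2.24, 11.9 and 5.37 RPKM (log2 fold change 2.15 ± 0.67) but was not called without those libraries. All 3 began at about 1 RPKM or below, where the added pseudocount of 1 RPKM makes the fold change smaller than the ratio. For SPINK1, with all controls under 1 RPKM, the filter itself fixed the lack of overlap.

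Of 16 tested canonical histone genes 9 were higher and 1 was lower, 62.5% called against 8.4% over all genes tested. Canonical histone messages normally end in a stem loop without a poly(A) tail. HIST1H2BK rose from 108, 13.3 and 28.2 to 217, 31.4 and 101 RPKM (log2 fold change 1.33 ± 0.44). HIST1H2BD rose from 14.9, 1.64 and 9.41 to 57.3, 3.74 and 22.2 RPKM (log2 fold change 1.29 ± 0.39). HIST1H2BJ rose from 4.71, 1.44 and 3 to 24.7, 2.16 and 13 RPKM (log2 fold change 1.45 ± 0.57). In all 3 the MDA-MB-436 libraries were lowest in both groups, so the groups overlap. HIST2H2BE rose from 1.14, 2.52 and 2.35 to 5.93, 6.38 and 6.18 RPKM (log2 fold change 1.29 ± 0.37) without overlap, while HIST2H2AC, a neighbour at the same cluster, fell from 2.75, 6.26 and 2.39 to 0.695, 1.86 and 1.67 RPKM (log2 fold change -0.95 ± 0.53). Histone genes are near-identical copies of each other, so the division of reads among them is uncertain. The number called higher was 5 without the MDA-MB-453 control, or all of MDA-MB-231, and 0 without all of MDA-MB-453. The number called lower, 1 in the full fit, was 0 without the MDA-MB-231 or MDA-MB-436 control, any 1 GSK343-labelled library, or any 1 whole line.

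Among lower genes the splicing factors stood out by count. SR proteins and hnRNPs bind pre-mRNA and choose its splice sites, and 14 of 39 tested members were lower with 0 higher (median -0.40). The share called was 35.9%, against 8.4% over all genes tested. SRSF1, the founding SR protein, was at 76, 81.9 and 104 RPKM in the controls and 44.5, 47 and 40.5 RPKM under the GSK343 label (chr17:58003360-58007346, minus strand; log2 fold change -0.96 ± 0.34, adjusted p = 0.00338). All GSK343-labelled values lay below all controls, and the 3 lines ended at like levels. HNRNPA2B1 was at 166, 163 and 173 RPKM in the controls and 96.2, 104 and 95.6 RPKM under the GSK343 label (log2 fold change -0.76 ± 0.30), with little spread inside either group. SRSF2 fell from 59.6, 54.5 and 67.5 to 42, 29.8 and 32.5 RPKM (log2 fold change -0.79 ± 0.31). HNRNPA3 fell from 15.9, 15.9 and 18.8 to 10.4, 9.18 and 8.88 RPKM (log2 fold change -0.77 ± 0.30). HNRNPD, which also binds unstable AU-rich messages, fell from 84.1, 38.7 and 65.5 to 47.2, 22.1 and 31.8 RPKM (log2 fold change -0.87 ± 0.30). The first 2 kept the groups apart, and HNRNPD, which starts at different levels in the lines, did not. Several hnRNP genes have processed pseudogenes, so their reads are partly uncertain. The number of splicing factors called lower was 8 without the MDA-MB-231 control, or the MDA-MB-231 GSK343 library, 7 without the MDA-MB-436 GSK343 library, or all of MDA-MB-436, 6 without the MDA-MB-453 control, 5 without all of MDA-MB-231, 2 without the MDA-MB-453 GSK343 library, and 0 without all of MDA-MB-453.

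Of 16 tested genes of the nuclear lamina and envelope 5 were lower and 0 higher (median -0.19), among them both B-type lamins. The share called was 31.25%, against 8.4% over all genes tested. LMNB1, lamin B1, was at 66.5, 52.5 and 66.9 RPKM in the controls and 16.4, 22.4 and 26.9 RPKM under the GSK343 label (chr5:126776623-126837020, plus strand; log2 fold change -1.48 ± 0.42, adjusted p = 0.00116). The highest GSK343-labelled value lay well under the lowest control. LMNB2 fell from 97.7, 61 and 61.3 to 54.9, 34.6 and 52.3 RPKM (log2 fold change -0.62 ± 0.33). LBR, the lamin B receptor, fell from 33.5, 30.02 and 49.5 to 17.7, 23.5 and 22.4 RPKM (log2 fold change -0.78 ± 0.37). LMNB2 and LBR kept the groups apart. TMPO, a chromatin tether, fell from 58.4, 22.9 and 61 to 36.7, 17.4 and 27.3 RPKM (log2 fold change -0.72 ± 0.35). BANF1, which bridges DNA and the envelope, fell from 112, 112 and 90.8 to 86, 67.2 and 64.9 RPKM (log2 fold change -0.53 ± 0.32). LMNB1 was the member still called without the MDA-MB-453 libraries. The number called lower was 3 without the MDA-MB-231 or MDA-MB-436 control, the MDA-MB-436 GSK343 library, or all of MDA-MB-436, 2 without the MDA-MB-453 control, or the MDA-MB-453 GSK343 library, and 1 without the MDA-MB-231 GSK343 library, or all of MDA-MB-231 or MDA-MB-453.

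Most genes of mitosis, replication and ribosome assembly did not pass, and those that did were lower. Of 63 tested mitosis genes 9 were lower and 0 higher (median -0.33), of 49 replication genes 6 and 0 (median -0.23), and of 46 genes of ribosome assembly in the nucleolus 6 and 0 (median -0.25), where 1.82% of all genes were lower. PLK1, a mitotic kinase, fell from 59.7, 84.1 and 56 to 34.3, 38.9 and 45.8 RPKM (log2 fold change -0.72 ± 0.35). KIF20A, a kinesin of cytokinesis, fell from 58, 64 and 69.3 to 39.6, 36.5 and 41.8 RPKM (log2 fold change -0.68 ± 0.33), both without overlap. PCNA, the sliding clamp of DNA polymerase, fell from 122, 114 and 123 to 68.3, 83.3 and 70.2 RPKM (log2 fold change -0.69 ± 0.31). The helicase subunit MCM6 fell from 23.8, 32 and 37.4 to 7.12, 28.1 and 16.3 RPKM (log2 fold change -0.98 ± 0.47). MCM6 moved little in MDA-MB-436 and most in MDA-MB-231. NPM1, nucleophosmin, fell from 121, 205 and 196 to 94.9, 126 and 94 RPKM (log2 fold change -0.70 ± 0.35). NCL, nucleolin, fell from 146, 167 and 172 to 104, 113 and 106 RPKM (log2 fold change -0.57 ± 0.32). UBTF, a factor of RNA polymerase I, fell from 25.4, 17.5 and 17.8 to 14.3, 12.3 and 13.9 RPKM (log2 fold change -0.53 ± 0.32). Of these 3 only NPM1 had overlapping groups. CCND1, cyclin D1, fell from 260.5, 57.3 and 154 to 127, 38.3 and 118 RPKM (log2 fold change -0.66 ± 0.36). The number of mitosis genes called lower was 5 without all of MDA-MB-436, 4 without the MDA-MB-436 GSK343 library, 2 without all of MDA-MB-231, 1 without the MDA-MB-453 control, or the MDA-MB-231 or MDA-MB-453 GSK343 library, and 0 without all of MDA-MB-453. That of replication genes was 10 without the MDA-MB-436 control, 2 without the MDA-MB-231 or MDA-MB-453 control, 1 without the MDA-MB-231 or MDA-MB-453 GSK343 library, and 0 without all of MDA-MB-231 or MDA-MB-453.

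The number of nucleolar genes called lower was 2 without the MDA-MB-231 GSK343 library, or all of MDA-MB-436, 1 without the MDA-MB-231 or MDA-MB-453 control, the MDA-MB-436 GSK343 library, or all of MDA-MB-231, and 0 without the MDA-MB-453 GSK343 library, or all of MDA-MB-453. TTTGAA, the core of the CHR element of mitotic genes, was in 48.1% of the 54 mitosis promoters against 8.07% of all and 13.2% of the called-lower ones, and CCAAT, often found beside it, in 70.4% against 35.2% of all. Among 19 tested heat shock proteins 4 were lower and 1 higher (26.32% called against 8.4% over all genes tested, median -0.36). HSP90AA1, the inducible HSP90, fell from 259.8, 266 and 349 to 201, 163 and 164 RPKM (log2 fold change -0.72 ± 0.37). HSPD1, the mitochondrial chaperonin, fell from 62.6, 146 and 128 to 52.2, 72.3 and 62.2 RPKM (log2 fold change -0.76 ± 0.37). PTGES3, the HSP90 co-chaperone p23, fell from 76.8, 81.4 and 91.9 to 58.3, 55.9 and 50.5 RPKM (log2 fold change -0.59 ± 0.31). The groups were separate for HSP90AA1 and PTGES3. The number called lower was 2 without the MDA-MB-231 control, the MDA-MB-231 GSK343 library, the MDA-MB-231 shEZH2 library, or all of MDA-MB-231, 1 without the MDA-MB-436 GSK343 library, or all of MDA-MB-436, and 0 without the MDA-MB-453 control, the MDA-MB-453 GSK343 library, or all of MDA-MB-453.

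Of 10 tested genes of caveolae, small pits of the cell surface, 2 were lower and 0 higher, with a median of -0.08. The share called was 20%, against 8.4% over all genes tested. CAV1, the coat protein of caveolae, was at 222, 159.5 and 242 RPKM in the controls and 75.4, 69.2 and 70.6 RPKM under the GSK343 label (chr7:116524785-116561184, plus strand; log2 fold change -1.50 ± 0.33, adjusted p = 0.00028). The 3 GSK343-labelled values lay below every control. CAV2, encoded next to it and assembled with it, fell from 25.4, 17.2 and 25.2 to 14.1, 12.8 and 14.2 RPKM (log2 fold change -0.66 ± 0.31). Its groups did not overlap either. ABHD17C, a depalmitoylase, fell from 16, 5.91 and 12.4 to 5.68, 2.01 and 7.58 RPKM (log2 fold change -1.06 ± 0.47). ID1, an inhibitor of basic helix-loop-helix factors, fell from 26.6, 17.4 and 13.6 to 6.21, 7.93 and 7.03 RPKM (log2 fold change -1.28 ± 0.43). COL13A1, a transmembrane collagen, fell from 42.4, 4.27 and 16 to 18.6, 0.671 and 8.96 RPKM (log2 fold change -1.19 ± 0.53), in MDA-MB-436 to below 1 RPKM. The number of caveolar genes called lower was 1 without the MDA-MB-453 control, the MDA-MB-231 or MDA-MB-453 GSK343 library, or all of MDA-MB-231 or MDA-MB-453. CAV1 and ABHD17C were still called without the MDA-MB-453 libraries, and CAV2, ID1 and COL13A1 were not.

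Non-coding genes were among those called, mostly as higher. Of 282 tested lincRNAs 45 were higher and 6 lower, and of 319 antisense RNAs 42 and 2, against 665 and 202 of 10974 protein-coding genes. Counts of lincRNAs detected above 0 were 1985, 2315 and 2288 in the GSK343-labelled libraries and 1583, 1668 and 1753 in the controls, so detection differed in the same direction, and its part in these calls was not tested. LINC00973 rose from 18.5, 2.23 and 10.1 to 59, 8.91 and 28.5 RPKM (log2 fold change 1.55 ± 0.35). UCA1, a long RNA first described in bladder cancer, rose from 9.19, 0.0518 and 4.78 to 53.4, 0 and 24.8 RPKM (log2 fold change 1.50 ± 0.80), with almost no reads in MDA-MB-436 in either group. AC003092.1 rose from 0.168, 0.336 and 0.0583 to 4.46, 1.87 and 3.68 RPKM (log2 fold change 1.82 ± 0.44). All its controls were under 1 RPKM, so it passed the filter only through the GSK343-labelled libraries, which fixed the lack of overlap. Of 259 processed pseudogenes 19 were higher and 4 lower, near the 6.58% higher and 1.82% lower over all genes tested. RPL39P40 was at 0, 1.63 and 1.27 RPKM in the controls and 4.64, 9.1 and 9.38 RPKM under the GSK343 label (log2 fold change 2.21 ± 0.34, adjusted p = 2.61e-05), while RPL39, the gene it was copied from, was at 6.02, 5.34 and 9.48 RPKM in the controls and 5.98, 2.85 and 2.89 RPKM under the GSK343 label and was not called (log2 fold change -0.72 ± 0.46, adjusted p = 0.0549). RPL13AP20 rose from 6.37, 5.48 and 4.69 to 24.8, 11.5 and 19.2 RPKM (log2 fold change 1.53 ± 0.38). RPL12P14 rose from 1.71, 7.17 and 3.67 to 11.1, 10.6 and 12.1 RPKM (log2 fold change 1.38 ± 0.50). Values of pseudogenes and antisense genes are uncertain, since the strand setting and the handling of multiply mapped reads are not given. Of the 71 ribosomal protein genes 1 was higher and 0 were lower, 1.408% called against 8.4% over all genes tested.

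The share called higher also differed with exon length and level. With the tested genes split by total exon length into 4 equal bins, 10.2%, 7.59%, 4.94% and 3.98% were called higher from the shortest bin to the longest. Split by mean level, the share was 7.80% in the lowest of 4 bins and 5.38% in the highest. Their part in the calls of single genes was not tested.

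The responses of the lines were also compared gene by gene. Differences of log2(RPKM + 1) between the GSK343-labelled library and the control of a line correlated across genes at r = 0.314 (rho = 0.272) between MDA-MB-231 and MDA-MB-436, and at 0.490 and 0.401 for MDA-MB-453 with these lines in turn. Genes are not independent replicates, so these are descriptions. MDA-MB-231 had 268 genes at least 2-fold higher, MDA-MB-436 had 275 and the MDA-MB-453 pair 576, and at least 2-fold lower were 106, 55 and 126. MDA-MB-231 and MDA-MB-436 shared 71 of the higher genes (26.5% and 25.8% of their lists) and 11 of the lower (10.4% of the 106 and 11 of the 55). Genes higher at least 2-fold in MDA-MB-231 and lower at least 2-fold in MDA-MB-436 numbered 2, and the reverse held for 4.

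MMP3, the matrix protease stromelysin, showed how uneven a called gene could be: it rose from 2.07, 0.494 and 1.58 to 194, 0.855 and 30.1 RPKM (log2 fold change 3.30 ± 1.77), almost not at all in MDA-MB-436. SAA1, an acute-phase protein, rose from 56.2, 18.9 and 21.7 to 393, 45.9 and 217 RPKM (log2 fold change 2.43 ± 0.68), least in the same line. In the fit without the MDA-MB-453 libraries 2 genes were called lower that were not called with them. KDELR1, the receptor that returns proteins to the endoplasmic reticulum, was at 199.6, 127 and 119 RPKM in the controls and 71.4, 35 and 162 RPKM under the GSK343 label, and only the line labelled MDA-MB-453 rose (log2 fold change -1.65 without that line, adjusted p = 0.0178). PYCR1, an enzyme of proline synthesis, was at 40.5, 24.5 and 17.1 RPKM in the controls and 21.2, 10.00 and 20.4 RPKM under the GSK343 label, likewise falling in the other lines and rising in MDA-MB-453. Whether a difference varied between lines was not tested here.

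**Figure D2:**
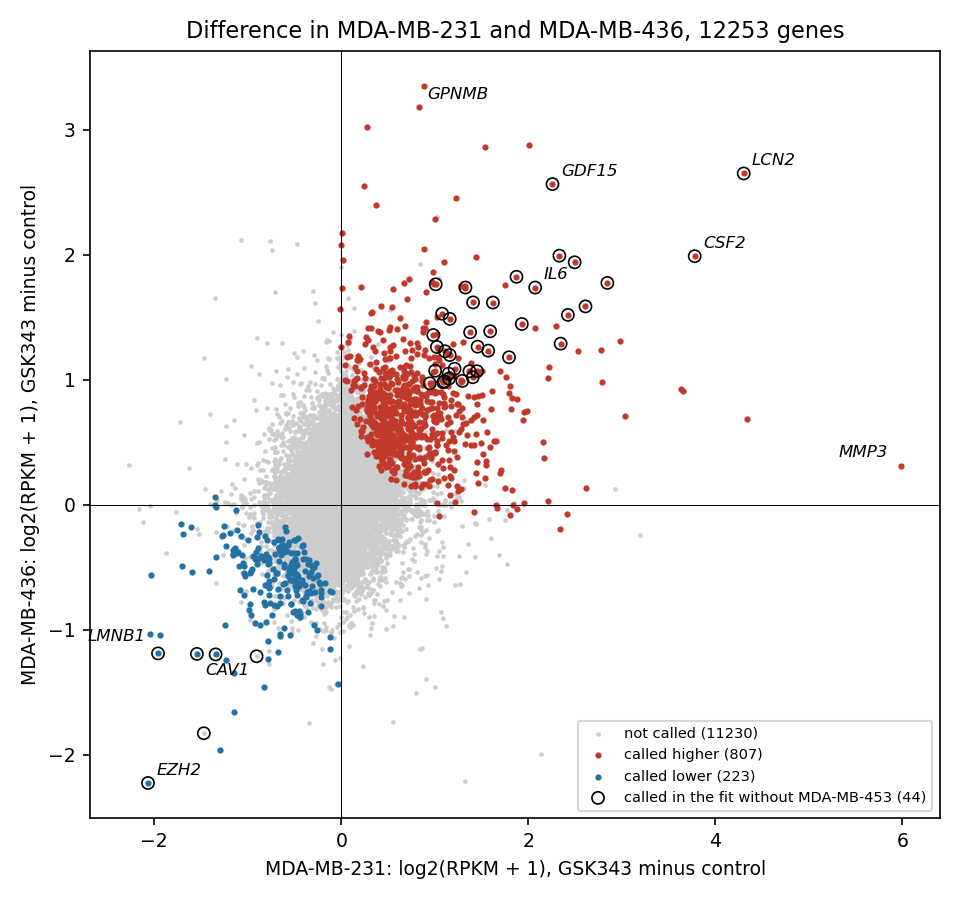
Difference between the GSK343-labelled and the control library, as log2(RPKM + 1), in MDA-MB-231 (x axis) and MDA-MB-436 (y axis), 1 point per tested gene. Red points are the 807 genes called higher, blue points the 223 called lower and grey points the 11230 not called, and circles mark the 44 genes called without the libraries labelled MDA-MB-453, which lie far from 0 on both axes.

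Set against the shEZH2-labelled libraries, the GSK343-labelled ones gave no call: 0 of 12260 genes (0.0%) passed the adjusted threshold with limma, and 272 had an unadjusted p under 0.05. EZH2 came closest together with RNU1-106P, annotated as a small nuclear RNA,, both at an adjusted p of 0.0675, and for EZH2 the log2 difference was -1.49 ± 0.46. A p that misses the threshold does not show that the agents act alike. Their separate comparisons share the control libraries. The count was 10 without all of MDA-MB-436, 3 without all of MDA-MB-453 and between 0 and 4 without any single library.

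Several groups had 0 members called in either direction, where 8.4% of all genes were called. They were nuclear-encoded oxidative phosphorylation subunits (56 tested), mitochondrially encoded proteins (13), metallothioneins and zinc transporters (21), Wnt pathway genes (30) and keratins (8). On the short lists 0 calls are near that share. Without all of MDA-MB-436, 8 mitochondrially encoded genes and 2 keratins were called higher. Without the MDA-MB-453 control 2 keratins were called lower. For the mitochondrially encoded proteins the lines disagreed, with median log2 differences of 0.78, -0.57 and 0.60.

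**Figure D3:**
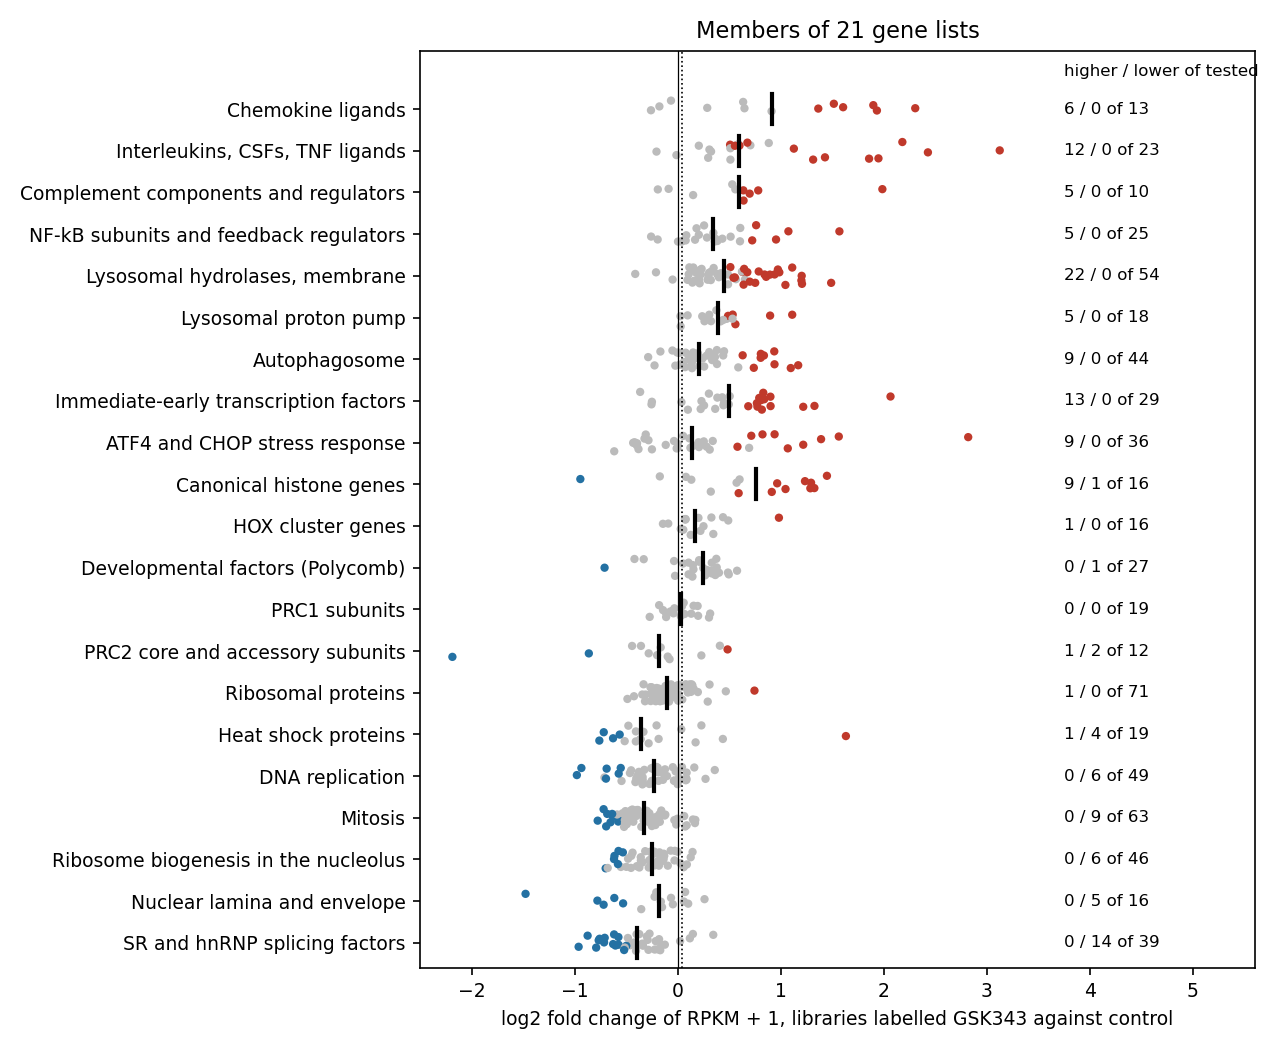
Log2 fold change of RPKM + 1, GSK343-labelled against control, for the tested members of 21 gene lists (1 point per gene, red called higher, blue called lower, grey not called), with a bar at each list's median and a dotted line at the median of all genes. Lysosomal hydrolases (22 higher, 0 lower of 54) sit to the right and splicing factors (0 higher, 14 lower of 39) to the left. Over all genes tested 8.4% were called.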

How the data were processed

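RNA-seq values of 6 libraries, with the 3 shEZH2-labelled libraries in the same fit, were analysed. The authors deposited RPKM for 58037 genes in 1 table of 9 columns, all used. STAR, HTSeq and GRCh38 are named without versions, per the submitters' processing notes. No source used here gives the annotation or strand setting. Low RPKM times exon length (GENCODE release 29) came out as whole multiples of 1 step in every library (100% within 0.05 of a read), which gave the implied reads. 99.0% of gene identifiers, read without their version, are in that release, from which coordinates (GRCh38) and biotypes were taken.

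The fit used log2(RPKM + 1) and limma 3.58.1 (statmod 1.5.0, R 4.3.3) with group and cell line as terms, on all 9 libraries, so that libraries are paired by the cell line named in the labels. Two-sided p-values were moderated with a mean-variance trend and adjusted by the Benjamini-Hochberg method over the 12260 genes tested, threshold 0.05. Fold changes are those of RPKM + 1, which understates changes of low genes. Errors are half-widths of 95% confidence intervals. To check the pairing, deviations from the group means were correlated across genes between control and GSK343-labelled libraries. Within a line r was 0.880 for MDA-MB-231, 0.869 for MDA-MB-436 and 0.370 for MDA-MB-453, and between lines it was -0.871 to 0.034. The deviations of a group sum to 0, so the values between lines are not separate support for the pairing. The fit was tested on simulated data.

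The comparison, the gene lists and the tests were chosen with earlier results of these data known, so list counts are descriptions without a test. Named genes are EZH2 and PRC2 members, up to 15 genes per direction by fold change with 1 sign in all lines, up to 30 per direction also called without MDA-MB-453, up to 5 per list by p, up to 6 per non-coding class, and up to 4 per direction for the contrast with shEZH2 and for opposite signs. CCL20, EGR1, GAA, HIST1H2BJ, HIST2H2AC, IL1B, KDELR1, MCOLN1, PYCR1 and RPL39 fall outside this rule and were chosen after their values were seen. Alternatives were other pseudocounts (0.1 and 0.5), no filter, a mean RPKM of at least 5, 2 rescalings, other moderation, no replicate block, only the 6 libraries, and leaving out each library or line.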

Additional observations from a re-analysis of the deposited data

How the results depend on the processing

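The count of 1030 called genes became 17 with no filter on low values (16 higher, 1 lower, of 34144 tested) and 2 with no replicate block. Leaving out single libraries gave between 322 and 1232 calls, leaving out MDA-MB-231 gave 390 and leaving out MDA-MB-453 gave 44. For the GSK343-labelled against the shEZH2-labelled libraries the count of 0 became 1 with a mean RPKM of at least 5, 1 with a common sum, 3 with robust variances, 10 without MDA-MB-436 and 3 without MDA-MB-453, and it was 0 to 4 without single libraries. EZH2 stayed at -2.19 but was no longer called with no filter (adjusted p 0.0604) or with no replicate block (0.175). It was called without each single library, at -2.34 to -2.01. SUZ12 and EED, not called, turned positive without the MDA-MB-453 control (0.046 and 0.050) or all of that line (0.046 and 0.12), and EED did so without the GSK343-labelled MDA-MB-453 library (0.083). Without single libraries SUZ12 ranged from -0.37 to 0.046 and EED from -0.21 to 0.083. Of the other 126 named genes that were called, 122 were still called with a pseudocount of 0.1, 123 after median-ratio rescaling, 118 after rescaling to a common sum, 116 with robust variances, 13 with no filter and 2 with no replicate block, and under these settings 0 changed sign. The causes were not tested. With 1 library per line and group and no dose or time, library, culture and treatment cannot be told apart.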
